A study of Mus musculus with 10 samples.

Results

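The dentate granule cell markers Prox1, Dsp, C1ql2, C1ql3, Tdo2, Calb1, Lct, Trpc6, Stxbp6 and Glis3 were followed in RNA from mouse hippocampal synaptoneurosomes. They were found by matching their symbols to the gene identifiers of the deposited gene table, and all 10 were among its 22255 genes. Synaptoneurosomes are pinched-off synaptic endings prepared from homogenised tissue. The animals were C57Bl/6J mice given vehicle (5 libraries) or AM6545 (5 libraries) over a sub-chronic course, and the series describes them as wild-type. AM6545 blocks CB1, the main cannabinoid receptor of neurons, and reaches the brain only poorly. The labels give no age, sex, dose or number of animals per library. Nothing says that the 5 libraries of a group came from separate animals, so the p-values measure the spread between libraries, which may be technical.

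The dentate gyrus is the input station of the hippocampus. Its granule cells receive the perforant path from the entorhinal cortex and send mossy fibres to the pyramidal cells of CA3, while CA1 lies further downstream. Granule cells are one of the few neuron types that go on being born in the adult mouse, and Prox1 both sets and maintains their identity. A hippocampus can be dissected with more or less of the dentate gyrus, in which case granule cell genes would be higher together in some libraries, and lower in others. The same would be seen with other amounts of RNA per granule cell, since cell number and RNA per cell cannot be told apart in bulk samples.

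Gene positions are those of RefSeq in GRCm38.p6, and identifiers are those of the table. Library totals ran from 18106112 to 25899794 estimated counts. All 10 genes passed the expression filter, on 34 to 8532 counts per library, with the lowest counts for Glis3. Genes of the other hippocampal fields were present too, with 8 of 8 CA1 genes, 7 of 7 CA2 genes, 7 of 7 CA3 genes and 12 of 12 further granule cell genes tested. Choroid plexus and ependymal genes were far lower in vehicle replicate 4 than elsewhere (mean 1.34 log2 CPM against 3.69 to 5.58). Oligodendrocyte genes were highest in AM6545 replicate 3 (mean 10.71 log2 CPM against 9.72 to 10.33 in the other 9 libraries). CPM stands for counts scaled to a common library size with TMM factors.

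Levels of different genes were compared per transcript length, as length-scaled transcript abundance (TPM) computed from the transcript table. C1ql2, a secreted C1q-like protein of mossy fibre synapses, and Calb1, the calcium buffer calbindin, were the most abundant. Their mean levels were 137 ± 19.1 TPM for C1ql2 and 132.5 ± 22.9 TPM for Calb1 (SD, n = 10 libraries). C1ql2 was above Calb1 in 5 of 10 libraries, so the order of these genes was not settled. Stxbp6, which encodes the SNARE-binding protein amisyn, followed at 40.2 ± 8.05 TPM and lay below both in every library. The next 4 were C1ql3 at 20.2 ± 2.50 TPM, Trpc6 at 16.3 ± 2.29 TPM, Prox1 at 15.8 ± 3.33 TPM and Tdo2 at 15.1 ± 2.40 TPM (SD, n = 10). C1ql3 exceeded Trpc6 in 10 of 10 libraries, whereas Trpc6 exceeded Prox1 in 6 and Prox1 exceeded Tdo2 in 4, within their spread. Lct (8.33 ± 1.84 TPM), Dsp (3.38 ± 0.535 TPM) and Glis3 (0.799 ± 0.269 TPM; SD, n = 10 each) completed the order, each below the preceding gene in every library.

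Prox1 (ENSMUSG00000010175.14, chr1:190118035-190170827), the homeobox transcription factor of granule cell identity, had 52.6, 77.2, 64.3, 64.3 and 66.6 CPM in vehicle replicates 1 to 5. In AM6545 replicates 1 to 5 it had 48.6, 57.7, 69.1, 57.2 and 51.1 CPM. Vehicle replicate 2 was the highest and AM6545 replicate 1 the lowest library, and the groups overlapped. The group means were 65.0 ± 8.77 and 56.8 ± 7.93 CPM (SD, n = 5 each), a difference of -0.20 on the log2 scale (SE 0.12) with a 95% interval of -0.44 to 0.05 (edgeR unadjusted p = 0.111, adjusted p = 0.9998). This was the smallest unadjusted p among the 10 genes. The other transcription factor of the list, the zinc finger protein Glis3 (ENSMUSG00000052942.14, chr19:28258851-28680265), had 2.14, 2.79, 3.99, 2.38 and 2.85 CPM with vehicle and 2.53, 1.76, 4.19, 2.91 and 2.62 CPM in AM6545 replicates 1 to 5. Replicate 3 was the highest library in both groups, and the groups overlapped. Glis3 had a difference of -0.01 on the log2 scale (SE 0.23) with a 95% interval of -0.51 to 0.48 (edgeR adjusted p = 0.9998).

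The C1q-like genes encode proteins that granule cells release from mossy fibres, where they bring kainate receptors to the synapse. C1ql2 (ENSMUSG00000036907.12, chr1:120340582-120343174) had 167, 145.9, 152.8, 155 and 127.8 CPM in vehicle replicates 1 to 5 and 140.5, 115.9, 173.7, 134.4 and 103.3 CPM in AM6545 replicates 1 to 5. The highest and the lowest library were both of the AM6545 group, replicates 3 and 5, so that the vehicle values lay inside the AM6545 range. Its difference (AM6545 minus vehicle) was -0.16 on the log2 scale (SE 0.13; edgeR unadjusted p = 0.212, adjusted p = 0.9998). C1ql3 (ENSMUSG00000049630.7, chr2:13001887-13010864) had 23.4, 26.9, 23.9, 26.5 and 26.6 CPM with vehicle and 24.9, 32.1, 28.5, 26.97 and 23.6 CPM in AM6545 replicates 1 to 5. The values overlapped, with AM6545 replicate 2 highest and vehicle replicate 1 lowest, and the difference (AM6545 minus vehicle) was 0.10 on the log2 scale (SE 0.10; edgeR unadjusted p = 0.363, adjusted p = 0.9998). In the GENCODE M21 annotation 62.8% of the 31-base words of C1ql3 also occurred in transcripts of other genes, chiefly Gm37811 on the opposite strand, and the use of strand is not given in the sources used here, so its count is less certain. The synaptic partners of these proteins, Adgrb3, Grik2, Grik4 and Nrxn3, had a median log2 fold change of -0.02, and 0 of 4 passed the threshold.

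Trpc6 (ENSMUSG00000031997.10, chr9:8543867-8680752), a calcium-permeable cation channel, had 25.2, 30.4, 29.9, 30.8 and 25.7 CPM with vehicle and 29.4, 25.9, 26.3, 25.7 and 20.5 CPM in AM6545 replicates 1 to 5. Its AM6545 values lay mostly low within the vehicle range, with replicate 5 below it. The difference (AM6545 minus vehicle) was -0.15 on the log2 scale (SE 0.11; edgeR unadjusted p = 0.184, adjusted p = 0.9998). Stxbp6 (ENSMUSG00000046314.17, chr12:44852484-45075118) had 78.2, 127.1, 88.6, 95.4 and 100.1 CPM in vehicle replicates 1 to 5 but only 86.98 to 92.3 CPM over the 5 AM6545 libraries. All AM6545 values lay inside the vehicle range, and the difference (AM6545 minus vehicle) was -0.15 on the log2 scale (SE 0.11; edgeR unadjusted p = 0.217, adjusted p = 0.9998). Without vehicle replicate 2 it was -0.03. Calb1 (ENSMUSG00000028222.3, chr4:15881264-15906709), whose protein also fills many CA1 pyramidal cells and interneurons, ranged from 232.4 to 349.5 CPM in vehicle libraries and 214.4 to 346 CPM after AM6545. Its difference (AM6545 minus vehicle) was 0.06 on the log2 scale (SE 0.13; edgeR adjusted p = 0.9998).

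Lct (ENSMUSG00000026354.9, chr1:128284756-128328318) encodes lactase, a gut enzyme whose transcript is also a granule cell marker in mice. It ranged from 17.96 CPM in vehicle replicate 1 to 33.7 CPM in vehicle replicate 2, with 20.3 to 30.2 CPM in AM6545 libraries. The AM6545 range thus fell inside the vehicle range, and the difference (AM6545 minus vehicle) was -0.05 on the log2 scale (SE 0.15; edgeR adjusted p = 0.9998). Tdo2 (ENSMUSG00000028011.17, chr3:81958412-81975728), the tryptophan dioxygenase at the head of the kynurenine pathway, ranged from 11.3 to 19.0 CPM in vehicle libraries and 11.4 to 16.2 CPM after AM6545, and its difference (AM6545 minus vehicle) was -0.0041 on the log2 scale (SE 0.15; edgeR adjusted p = 0.9998). Dsp (ENSMUSG00000054889.11, chr13:38151294-38198577) encodes desmoplakin, which anchors desmosomes to intermediate filaments. It was narrow in vehicle (13.4 to 15.01 CPM) and wide in AM6545 libraries (10.2 to 18.02 CPM), with group means of 14.2 ± 0.748 and 13.9 ± 3.13 CPM (SD, n = 5 each) and a difference of -0.03 on the log2 scale (SE 0.14; edgeR adjusted p = 0.9998).

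**Figure D1:**
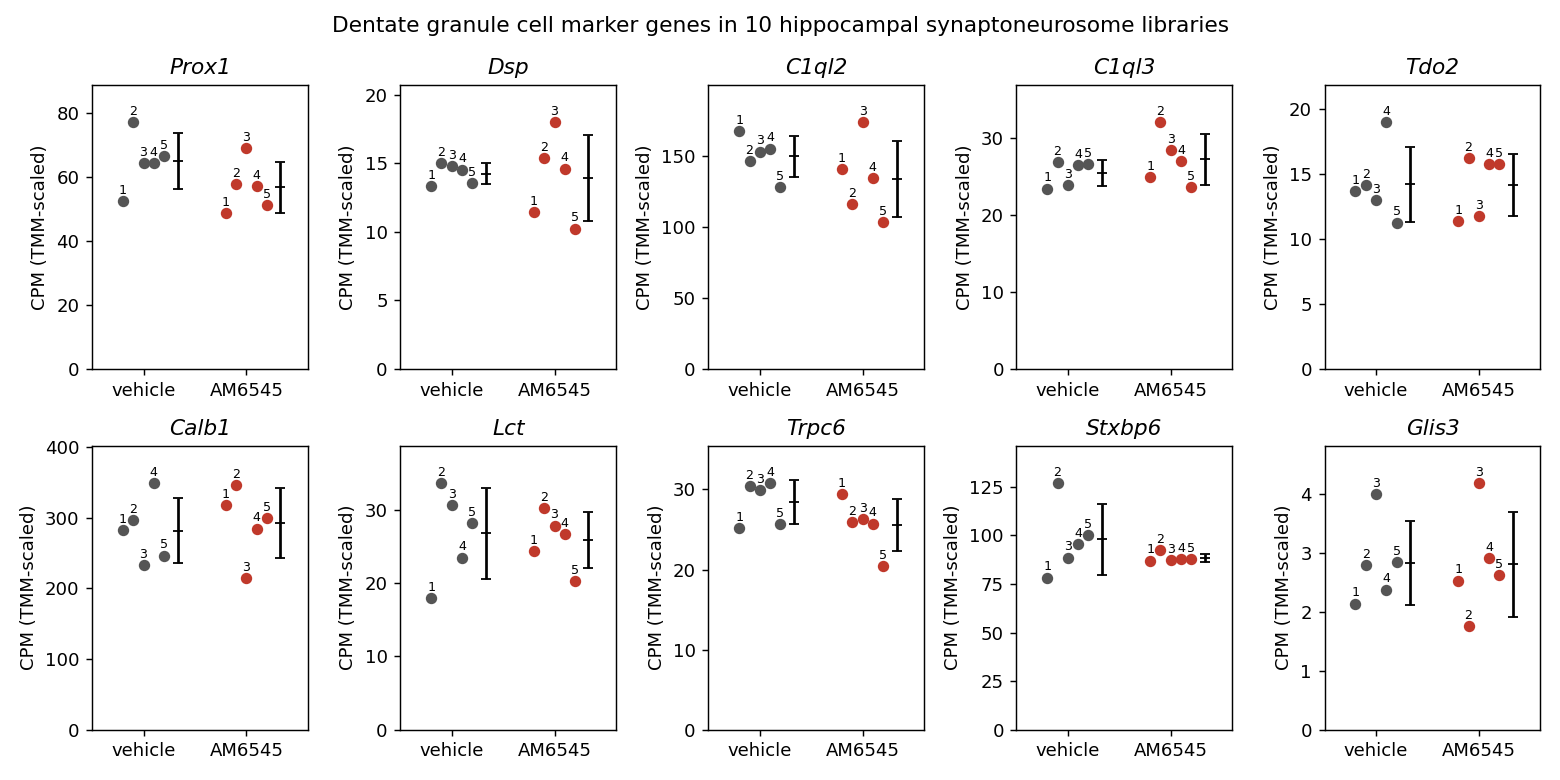
Each panel shows 1 gene, with its CPM (TMM-scaled, axis from 0) in the 5 vehicle (grey) and 5 AM6545 (red) libraries, numbered by replicate, and the group mean with its SD as a black bar. The groups overlap in all 10 panels, and vehicle replicate 2 stands at the top for Prox1, Lct and Stxbp6.

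None of the 10 genes passed the adjusted threshold of 0.05, against a background of 0% of 14358 genes tested. At an unadjusted p under 0.05 there were 0 of 10, where 1.88% of all genes tested lay under it. The groups overlapped in 10 of 10, and they did not overlap in 0.293% of all genes. There were 8 genes lower and 2 (C1ql3 and Calb1) higher in AM6545 libraries, while 51.9% of all genes tested were lower. The median log2 fold change of the 10 was -0.04, and that of all genes tested was -0.0057. The 95% intervals held no change beyond 1.36-fold for the 9 genes other than Glis3, and none beyond 1.42-fold when Glis3 was counted. Which of the libraries entered changed the sign for 5 genes with values near 0, and it moved the size for the other 5. Prox1 went from -0.20 to -0.13 without vehicle replicate 2, and C1ql2 from -0.16 to -0.28 without AM6545 replicate 3 or to -0.08 without AM6545 replicate 5. C1ql3 went from 0.10 to 0.03 without AM6545 replicate 2, and Trpc6 from -0.15 to -0.08 without AM6545 replicate 5.

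The further granule cell genes, a list of 12 with no member in common with the 10, was tested alongside them. Of these, 6 were higher and 6 lower in AM6545 libraries, with a median log2 fold change of -0.02 and 0 past the threshold. The most abundant were Bcl11b, a zinc finger transcription factor (167.2 ± 21.2 CPM with vehicle, 162.7 ± 22.9 CPM with AM6545), and Ahcyl2 (147 ± 28.6 and 150.7 ± 6.39 CPM; SD, n = 5 each). Sema5a, a semaphorin, had a log2 fold change of -0.06 and the ciliary transcription factor Rfx3 had -0.04. Maml2, a coactivator of Notch signalling, was the only one of the 12 with an unadjusted p under 0.05. It averaged 14.3 ± 2.35 CPM with vehicle against 11.8 ± 0.757 CPM with AM6545 (SD, n = 5 each). This was a log2 difference of -0.28 (SE 0.12) at edgeR unadjusted p = 0.0347 (adjusted p = 0.9998). The groups overlapped.

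**Figure D2:**
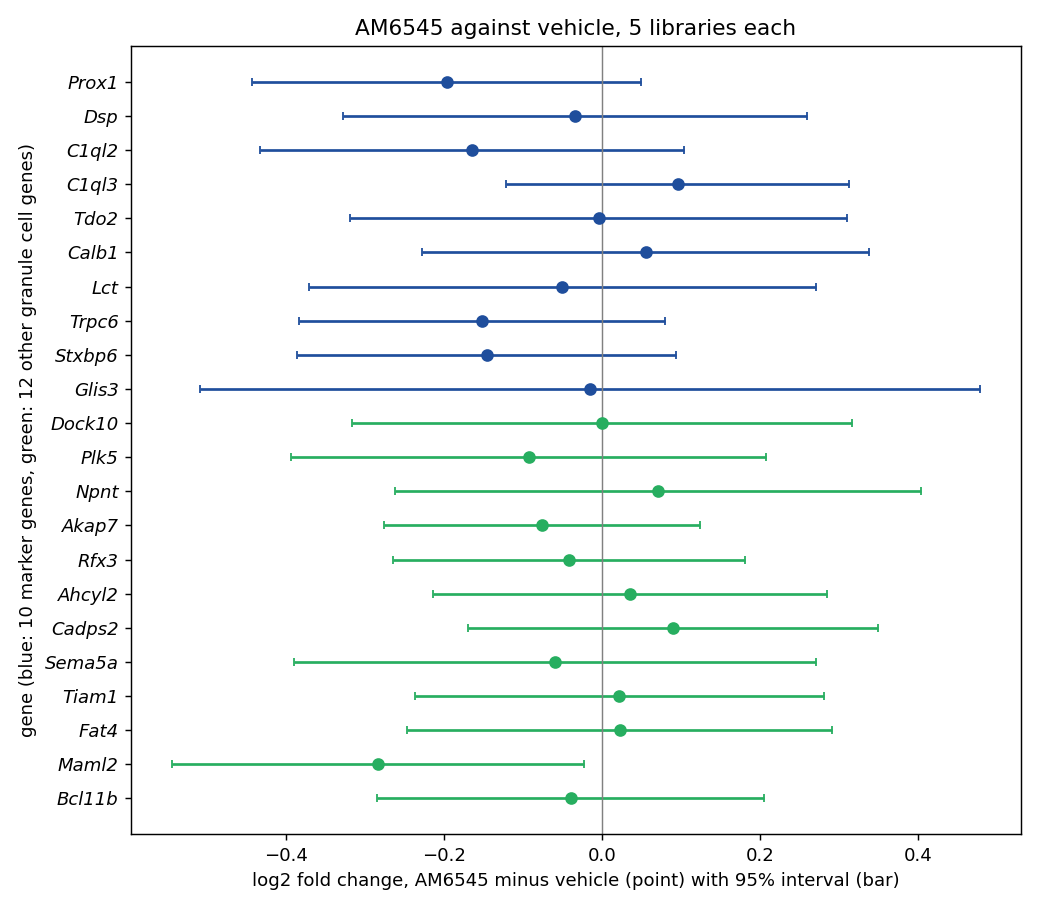
Log2 fold change (x axis, AM6545 minus vehicle, 5 libraries each) of the 10 marker genes (blue) and the 12 other granule cell genes (green), with 95% intervals from edgeR as bars. The intervals of all 10 marker genes include 0, and that of Maml2 alone among the 22 genes does not.

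Genes that mark other stages and cells of the dentate gyrus were also set beside the 10. Of 8 genes of immature granule cells, 6 were tested and 0 passed the threshold (median log2 fold change 0.09, from -0.08 for Neurod1 to 0.73 for Igfbpl1). Of 5 genes of hilar mossy cells, 4 were tested and 0 passed, with log2 fold changes of -0.49 for Nmb, 0.11 for Calcrl, 0.48 for Drd2 and 0.50 for Calb2. Calb2, the calretinin gene, was on both of these lists, which does not make it specific to either cell type. It is the calcium-buffer counterpart of Calb1. It averaged 46.4 ± 6.88 CPM with vehicle against 65.9 ± 15.7 CPM with AM6545 (SD, n = 5 each). This was a log2 difference of 0.50 (SE 0.15) at edgeR unadjusted p = 0.00298 (adjusted p = 0.9998). The groups overlapped. Igfbpl1, a gene of newborn neurons, had 1.46 ± 0.844 and 2.41 ± 0.823 CPM (SD, n = 5 each). This was a log2 difference of 0.73 (SE 0.33) at edgeR unadjusted p = 0.0415 (adjusted p = 0.9998). Neither Calb2 nor Igfbpl1 passed the threshold, and the cells their RNA came from were not tested. Prkcd, of a list of 6 genes of neighbouring cortex and thalamus, also had a log2 difference of 0.50 (edgeR unadjusted p = 0.0144, adjusted p = 0.9998). In that list 4 genes were higher and 2 lower in AM6545 libraries. Of 5 desmosome genes 4 were tested, and of 8 kynurenine pathway genes 4, with 0 past the threshold in either.

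The variation of each marker over the 10 libraries was set beside that of genes of its level. The SD of log2 CPM exceeded the median of the genes nearest in mean level for 9 of 10, all but C1ql3, with no tolerance applied. By definition as many of those neighbours lie above their median as below it. For Trpc6 both values were nearly equal (0.178 and 0.177). The excess was slight for Dsp (0.227 against 0.2035) and Stxbp6 (0.186 against 0.1665). It ran from 0.14 for C1ql3 to 0.36 for Glis3, for which counting error alone would give 0.19. Lct, at 0.28 against 0.18 for its neighbours, had the widest swing relative to its level.

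The highest correlations among the markers were those of Prox1 with Stxbp6, Dsp and Lct, and none passed the adjusted threshold. Over the 10 libraries Pearson's r was 0.732 for Prox1 with Stxbp6 (permutation p = 0.00905, adjusted over 45 pairs 0.204; Spearman's rho 0.661, permutation p = 0.0441, adjusted 0.316). It was 0.714 for Prox1 with Dsp (permutation p = 0.0184, adjusted 0.244; rho 0.709, permutation p = 0.0266, adjusted 0.300) and 0.71 for Prox1 with Lct (permutation p = 0.0217, adjusted 0.244; rho 0.648, permutation p = 0.0491, adjusted 0.316). With the 2 libraries most extreme in Prox1 left out, r was 0.569, 0.715 and 0.687. Among all genes tested, 98.9% to 99.1% had a lower r with Prox1 than these 3 genes, which were picked for their high r with it. For the other markers that share was 90.1% (Trpc6), 88.7% (Glis3), 82.5% (C1ql2), 82.3% (C1ql3), 45.2% (Tdo2) and 18.3% (Calb1). Of the 45 pairs 0 passed the adjusted threshold, and 6 had an unadjusted permutation p under 0.05. The share of all gene pairs under that p was not computed. Over all pairs of genes tested, r had 5th and 95th percentiles of -0.658 and 0.677, so values of this size were not rare.

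The most negative correlations involved Calb1, Tdo2 and Glis3. The strongest relation of the 45 was inverse, between Calb1 and Glis3, with r = -0.854 (permutation p = 0.00174, adjusted 0.0783; rho -0.770, permutation p = 0.0130, adjusted 0.293; r = -0.602 with the 2 libraries most extreme in Calb1 left out). Glis3 was also inverse to Tdo2 (r = -0.478, permutation p = 0.164, adjusted 0.532; rho -0.491, permutation p = 0.155, adjusted 0.614; r = -0.516 with the 2 most extreme in Tdo2 left out). Calb1 and C1ql2 had r = -0.406 (permutation p = 0.240, adjusted 0.569; rho -0.394, permutation p = 0.261, adjusted 0.626; r = -0.220 with the 2 most extreme in C1ql2 left out). The paralogues C1ql2 and C1ql3 had r = -0.124 (permutation p = 0.732, adjusted 0.899; rho -0.103, permutation p = 0.786, adjusted 0.850; r = -0.0989 with the 2 most extreme in C1ql2 left out). The mean r with the other 9 markers was highest for Prox1 (0.375), Dsp (0.346) and Lct (0.334), and lowest for Calb1 (-0.131) and Tdo2 (-0.0136).

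Over all 45 pairs the mean r was 0.185, with 31 pairs positive and 14 negative, and 24.4% of the pairs had r over 0.5. Over the 103068903 pairs of all genes tested the mean was 0.0012 and 12.9% were over 0.5. Within other lists of cell type genes the mean r varied widely, so the value of the markers was not particular to them. It was 0.024 for CA2, 0.084 for CA1, 0.136 for CA3 and 0.139 for the 12 further granule cell genes. Interneuron genes had 0.184, microglia genes 0.466 and oligodendrocyte genes 0.872. These are descriptions without a test, and every pair shares the same libraries, depth and scaling factors. For the markers the mean r was 0.271 within vehicle and 0.160 within AM6545 libraries. Without vehicle replicate 2 and AM6545 replicate 5, the libraries of highest and lowest marker level, it was 0.104.

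**Figure D3:**
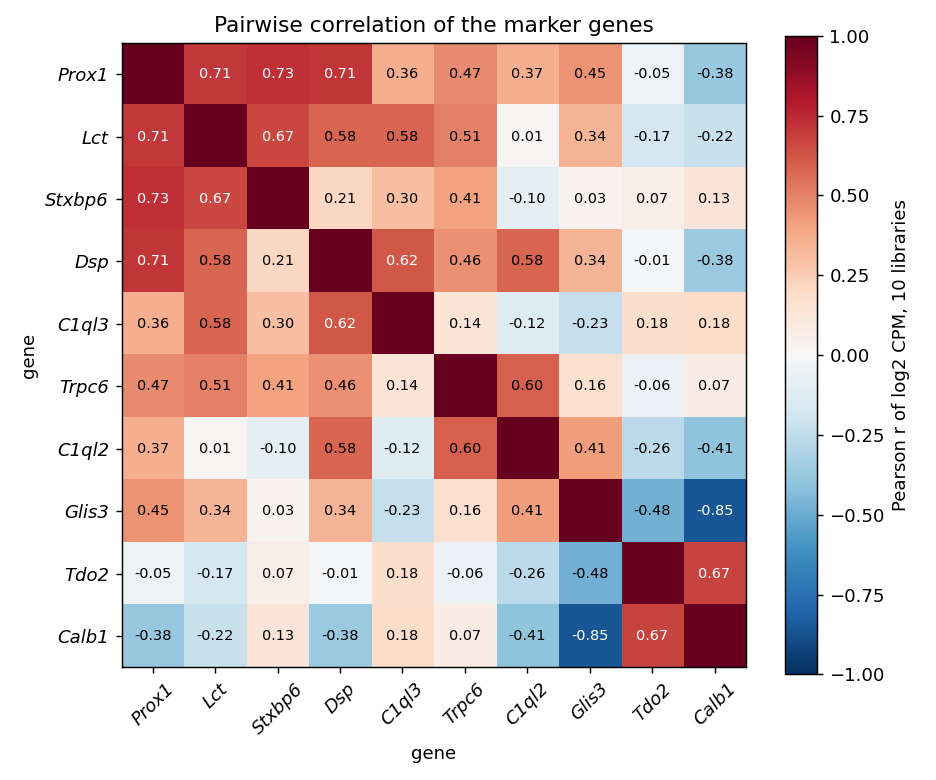
Pearson r of log2 CPM over the 10 libraries for every pair of the 10 marker genes (red positive, blue negative, scale -1 to 1, diagonal 1). Prox1, Lct, Stxbp6 and Dsp form the reddest corner, apart from Dsp with Stxbp6 at 0.21, and Calb1 with Glis3 is the bluest cell at -0.85.

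Prox1 and the 3 markers of highest r with it are shown by the 250 bases before their first listed start site in RefSeq (GRCm38.p6, written along the gene's strand), so that the sequences before these genes can be read side by side. The windows are chr1:190170828-190171077 on the minus strand for Prox1, chr13:38151044-38151293 on the plus strand for Dsp, chr1:128328319-128328568 on the minus strand for Lct and chr12:45074484-45074733 on the minus strand for Stxbp6. The Stxbp6 window precedes the start site of the RefSeq promoter table but lies inside the RefSeq gene span given above, which begins further upstream. Capitals mark CAGATG, an E-box of proneural factors such as NeuroD, and the TATA element TATAAA, each searched on both strands.
Prox1: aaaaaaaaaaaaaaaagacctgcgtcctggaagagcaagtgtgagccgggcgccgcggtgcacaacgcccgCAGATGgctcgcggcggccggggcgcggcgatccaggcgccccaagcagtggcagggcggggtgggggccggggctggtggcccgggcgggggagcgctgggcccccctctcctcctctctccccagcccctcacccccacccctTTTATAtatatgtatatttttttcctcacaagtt
Dsp: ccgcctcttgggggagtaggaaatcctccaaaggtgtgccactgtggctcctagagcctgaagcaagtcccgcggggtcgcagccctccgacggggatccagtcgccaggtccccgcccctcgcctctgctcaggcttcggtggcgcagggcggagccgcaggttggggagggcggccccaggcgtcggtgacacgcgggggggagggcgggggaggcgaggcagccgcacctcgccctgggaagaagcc
Lct: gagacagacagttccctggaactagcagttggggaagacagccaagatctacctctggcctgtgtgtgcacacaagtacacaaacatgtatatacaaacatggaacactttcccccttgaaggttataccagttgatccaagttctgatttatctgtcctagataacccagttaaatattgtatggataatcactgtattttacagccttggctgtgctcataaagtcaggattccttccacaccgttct
Stxbp6: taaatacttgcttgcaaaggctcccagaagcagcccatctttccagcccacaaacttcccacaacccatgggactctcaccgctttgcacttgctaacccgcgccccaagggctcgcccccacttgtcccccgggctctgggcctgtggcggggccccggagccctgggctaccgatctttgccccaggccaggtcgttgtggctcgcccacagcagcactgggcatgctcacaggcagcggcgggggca
The E-box was in the Prox1 window alone among the 10 windows of the 9 members matched, where 14.4% of 32851 RefSeq windows of the same length hold it on either strand. TATAAA or its reverse complement TTTATA was in 2 of the 10 windows, those of Prox1 and Tdo2, and in 12.4% of all. GC content was 64.8% for Prox1, 72.4% for Dsp, 65.2% for Stxbp6 and 42.8% for Lct, against a median of 52.4%.

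The markers were then set against the 12 further granule cell genes, library by library, as a description without a test. The mean standardised level of the 10 (each gene scaled to mean 0 and SD 1) had r = 0.879 and rho = 0.842 with that of the 12, and r = 0.761 with the 2 libraries most extreme in the marker mean left out. In both lists vehicle replicate 2 was highest, at 0.79 and 0.75, and AM6545 replicate 5 and vehicle replicate 1 were the lowest 2, at -0.90 and -0.60 for the markers and -0.61 and -0.62 for the 12. Of the 12 genes, 10 (83.3%) had a positive r with the marker mean, led by Rfx3 (0.849), Dock10 (0.731) and Npnt (0.699), whereas Plk5 (-0.348) and Fat4 (-0.182) were negative. The CA1 list had 6 of 8 (75.0%) positive, and among all genes tested 48.3% were. The mean of 5 general excitatory neuron genes also had r = 0.825 with the marker mean, so a high correlation was not limited to granule cell genes. Its rho was 0.879, and r was again 0.825 with the same 2 libraries left out. On both of these measures it was above the list of 12 granule cell genes. The r with the marker mean was 0.642 for 6 genes of dendritic RNA and 0.634 for 6 astrocyte genes, but 0.0555 and 0.177 with the same 2 libraries left out. The most negative list was that of endothelial and pericyte genes, at -0.589. Other lists of dentate cells did not rise with the markers in the same way. The 4 hilar mossy cell genes had r = -0.572, and -0.052 with the same 2 libraries left out. The 6 immature granule cell genes had r = 0.135, and 0.113 with these libraries left out. The source of these correlations was not tested.

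Genes of the other hippocampal fields had weaker correlations with the markers. The marker mean had r = 0.350 with 8 CA1 genes (rho 0.212), 0.166 with 7 CA2 genes (rho 0.261) and -0.117 with 7 CA3 genes (rho -0.188), and the CA1 value was 0.0255 with the same 2 libraries left out. AM6545 replicate 5 was lowest for both the markers and the CA1 genes, and vehicle replicate 1 was low for markers but high for CA1 genes. Abundant genes of these lists overlapped between the groups, with Wfs1 of CA1 at 138.6 ± 27.1 and 145.7 ± 35.2 CPM, Rgs14 of CA2 at 158 ± 24.3 and 149.2 ± 27.6 CPM, and Bok of CA3 at 106 ± 18.1 and 104.7 ± 8.09 CPM (vehicle and AM6545, SD, n = 5 each). Bok had the most negative r of the CA3 list at -0.638. The balance of the fields was summarised as the mean log2 CPM of the markers minus that of the CA1 genes. It was -0.80 ± 0.17 in vehicle libraries, from -1.05 in replicate 1 to -0.59 in replicate 2, and -0.82 ± 0.08 in AM6545 libraries, from -0.92 to -0.73 (SD, n = 5 each). The AM6545 range lay inside that of vehicle. Against the CA3 genes the difference was 1.11 ± 0.19 in vehicle and 1.01 ± 0.15 in AM6545 libraries.

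**Figure D4:**
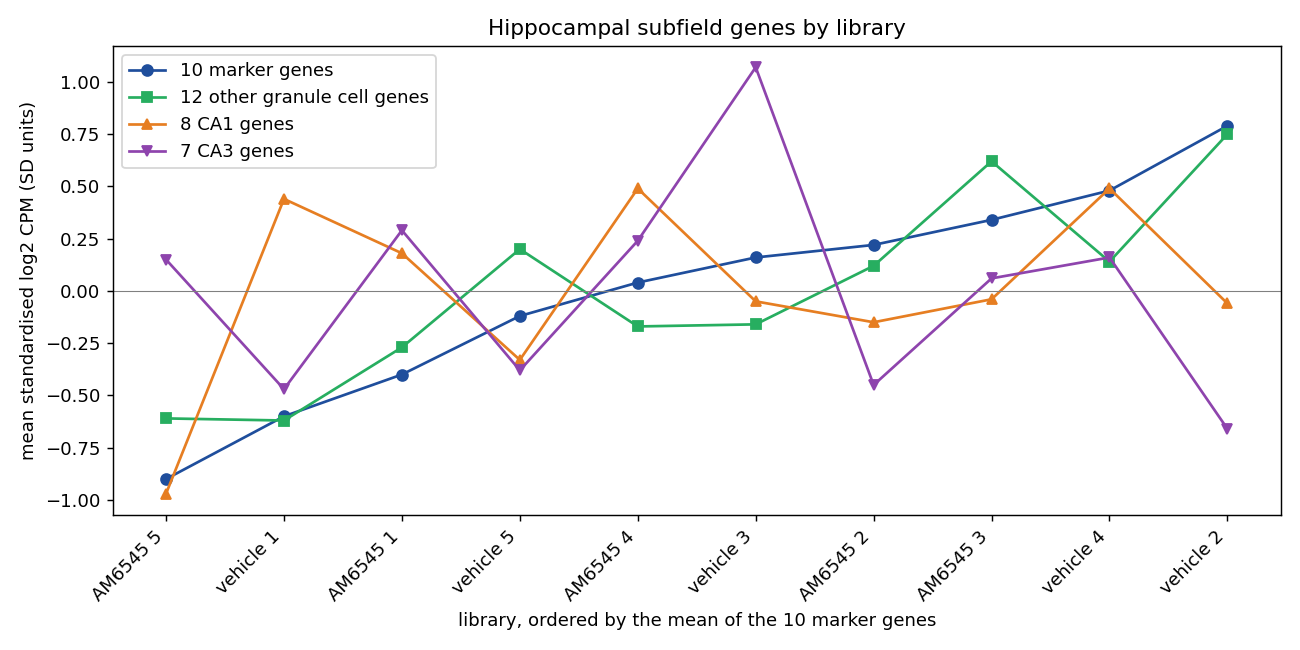
Mean standardised log2 CPM (y axis, SD units) of the 10 marker genes, 12 other granule cell genes, 8 CA1 genes and 7 CA3 genes in each library, with the libraries ordered along the x axis by the marker mean. The 2 granule cell lists climb together from AM6545 replicate 5 to vehicle replicate 2, and the CA1 and CA3 lines do not.

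Single markers were then compared with the means of 10 gene lists, 100 relations in all, a set chosen after the first correlations had been seen. Of these, 2 passed the adjusted threshold in Pearson's r, and 1 of them also in Spearman's rho. How many of all genes tested reached such an r with the same lists was not computed. Neither relation is therefore shown to be particular to its marker. Between single genes, 4.2% of all pairs tested had r over 0.7. Prox1 followed the 12 other granule cell genes (r = 0.880, permutation p = 0.00079, adjusted over 100 relations 0.0395; rho 0.939, permutation p = 0.00017, adjusted 0.0170), with r = 0.883 with the 2 libraries most extreme in Prox1 left out and 0.820 to 0.931 when each library was left out. Akap7, a protein kinase A anchor, had the highest single r with Prox1 at 0.843, and Plk5 the lowest at -0.516.

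Glis3 followed the oligodendrocyte genes (r = 0.871, permutation p = 0.00027, adjusted 0.0270; rho 0.879, permutation p = 0.00149, adjusted 0.0745), with r = 0.811 with the 2 libraries most extreme in Glis3 left out and 0.817 to 0.902 when each library was left out. All 6 oligodendrocyte genes were positive with it, from Mog (0.678) to Mobp (0.905), both of them myelin components. Calb1 was inverse to the same mean (r = -0.801, permutation p = 0.00478, adjusted 0.119; rho -0.685, permutation p = 0.0344, adjusted 0.430; r = -0.446 with the 2 most extreme in Calb1 left out). Replicate 3 of either group, the libraries of highest oligodendrocyte level, had the highest Glis3 and the lowest Calb1 in its group. Glis3 was also inverse to the interneuron genes (r = -0.821, permutation p = 0.00284, adjusted 0.0947; rho -0.818, permutation p = 0.00560, adjusted 0.187; r = -0.714 with the 2 most extreme in Glis3 left out). With the granule cell list Glis3 had r = 0.318, C1ql2 0.310, Calb1 -0.217 and Tdo2 -0.128 (permutation p = 0.374, 0.384, 0.544 and 0.719, adjusted 0.694, 0.694, 0.851 and 0.922; rho 0.382, 0.2, -0.164 and -0.103). The other 5 markers besides Prox1 had r from 0.504 (Trpc6) to 0.774 (Lct) with that list and did not pass the adjusted threshold either (adjusted permutation p from 0.160 to 0.480). The part of oligodendrocyte RNA in the values of Glis3 was not tested.

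**Figure D5:**
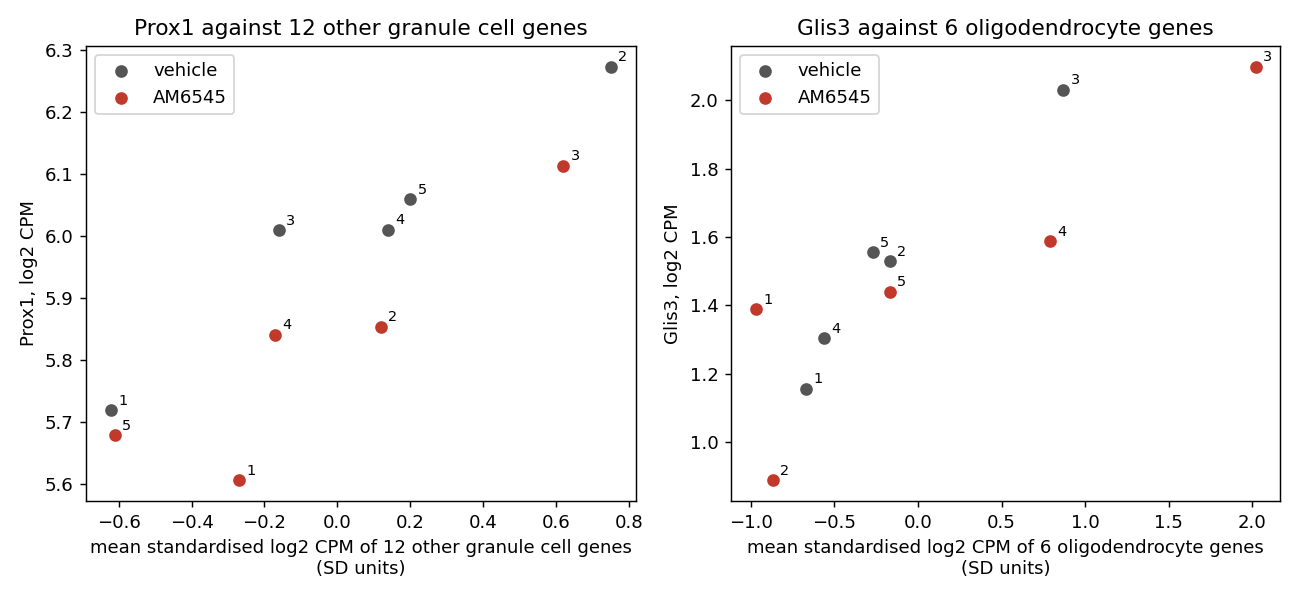
Left, Prox1 (log2 CPM, y axis) against the mean standardised level of 12 other granule cell genes (x axis, SD units), and right, Glis3 against that of 6 oligodendrocyte genes, 1 point per library, numbered by replicate (grey vehicle, red AM6545). Points climb from lower left to upper right in both panels, with vehicle replicate 2 at the top for Prox1 and replicate 3 of both groups at the top for Glis3.

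Genes other than the 10 were ranked by r with the marker mean among 13514 genes of at least 1 CPM. Closest were Tmtc4 (0.923), Rgs8 (0.904), Ano3 (0.902), St6gal2 (0.894) and Rras2 (0.886). Most inverse were Chia1 (-0.938), Ak8 (-0.903), Snx20 (-0.895), Zfp579 (-0.877) and Trip10 (-0.872). These rest on 10 libraries, and over all genes tested the 5th and 95th percentiles of r were -0.554 and 0.567.

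The transcript table listed 36 transcripts of the 10 genes. Of these 26 had counts, 18 were tested and 0 passed the adjusted threshold, against 0.00314% of 31848 transcripts tested. At an unadjusted p under 0.05 there were 0 of 18 (1.97% of all transcripts tested), and the groups failed to overlap for 0 of 18 (0.575% of all). Over the pooled libraries, 1 transcript held nearly all counts of 7 genes: C1ql2, C1ql3 and Lct had 1 with counts, and the leading transcript held 99.95% of Calb1, 97.7% of Glis3, 97.1% of Stxbp6 and 96.1% of Prox1 (ENSMUST00000175916.8). For Stxbp6 that share ran from 81.5% to 100% by library, the lowest being AM6545 replicate 3, where a second coding transcript (ENSMUST00000120531.8) held 18.5%. Dsp, Tdo2 and Trpc6 were divided in the pooled libraries. The shorter protein-coding Dsp transcript (ENSMUST00000127906.8) held 80.2 ± 11.9% of the gene in vehicle and 78.6 ± 10.1% with AM6545 (SD, n = 5 each), and the longer one (ENSMUST00000124830.3) the rest. For Tdo2, the leading transcript (ENSMUST00000029645.14) held 61.0 ± 9.24% and 59.5 ± 9.43%, a shorter coding one (ENSMUST00000193879.2) 26.4 ± 7.85% and 27.1 ± 8.15%, and a processed transcript (ENSMUST00000151089.8) 12.1 ± 2.07% and 13.2 ± 2.37%. The leading transcript of Trpc6 (ENSMUST00000050433.8) held 81.7 ± 3.88% in vehicle and 78.7 ± 3.63% with AM6545, with a log2 difference of its level of -0.22 (SE 0.13; edgeR unadjusted p = 0.115, adjusted p = 0.9999). A second one (ENSMUST00000214596.2) held 9.79 ± 2.18% and 10.9 ± 4.83%. Differences in these shares were smaller than the SD between libraries, the split of Dsp moving from 65.5% to 92.2% for its leading transcript over the 10 libraries.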

How the data were processed

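Libraries came from total RNA of hippocampal synaptoneurosomes by SMARTer low-input synthesis, as the labels state. The authors deposited estimated counts per gene and per transcript for 10 libraries. The unit was read from the values, of which 38.6% (genes) and 41.6% (transcripts) were not whole. Salmon 1.5.2 and mm10 are named in the submitters' processing notes. The annotation release and the use of strand are not given in the sources used here.

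Symbols were matched by identifier without version for 22155 of 22255 genes. Estimated counts were rounded, filtered with filterByExpr (minimum count 10, minimum total 15), scaled by TMM and tested with edgeR 4.0.16 in R 4.3.3 (robust quasi-likelihood, group only, two-sided, Benjamini-Hochberg over all genes or transcripts tested). Correlations used log2 CPM (prior count 2) and two-sided permutation tests of 100000 resamples. TPM used GENCODE M21 lengths for 101527 of 102392 transcripts. Scripts were tested on simulated data. Members and lists were chosen with earlier results of these data known. All 10 members were named. Genes of other lists were named for an unadjusted p under 0.05 or as abundant genes of a granule or CA list, and genes outside them by the 5 highest and 5 lowest r. Neurod1, Nmb, Calcrl, Drd2, Plk5, Fat4, Npnt, Dock10, Akap7, Mog, Mobp and the pair of C1ql2 with C1ql3 were named after their values were seen.

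Floors of 3 counts were 0.116 to 0.166 CPM and cover counting error only, since amplified reads are not independent molecules. Alternatives were other scalings, filters, priors and tests (DESeq2 1.42.0, limma 3.58.1), a replicate block and leaving out each library.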

Additional observations from a re-analysis of the deposited data

Results flagged for a closer look

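Stxbp6 in AM6545 replicate 2 had 92.3 CPM, set apart from the other 4 AM6545 libraries at 86.98 to 87.9 CPM. The gap is large only relative to a very narrow group, and the value lies inside the vehicle range. It was the only library to stand apart in 24 checks of groups of 5, where chance gives about 1.2.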

How the results depend on the processing

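No member gene or member transcript passed the adjusted threshold under any alternative run or without any 1 library. The count of all genes called was 0 in the other settings and 0 to 1 when each library was left out (1 without vehicle replicate 3 and 1 without AM6545 replicate 3). All genes at an unadjusted p under 0.05 numbered 270, but 710 with limma-voom with sample quality weights, 433 with no filter, and 165 to 578 when each library was left out. Among the members that count was 0, but 1 with limma-voom and 0 to 2 when each library was left out (2 without vehicle replicate 1 and 2 without AM6545 replicate 3). In these 2 runs 230 of 14402 and 504 of 14460 genes tested lay under that p. All transcripts called numbered 1, but 11 with the DESeq2 Wald test, 2 with no filter, 0 with at least 10 counts in every library and 0 to 4 when each library was left out. The median log2 fold change of the members lay between -0.12 and -0.04 in the other settings, and between -0.14 and -0.01 when each library was left out. Leaving out single libraries gave ranges across 0 for Dsp (-0.142 to 0.0582), Tdo2 (-0.0778 to 0.125), Calb1 (-0.0115 to 0.149), Lct (-0.163 to 0.0460) and Glis3 (-0.20 to 0.14). Tdo2 also changed sign with total count scaling (0.0068), limma-voom (0.11) and the replicate block (0.00098). The cause was not tested. The mean pairwise r lay between 0.130 and 0.227 when each library was left out and was 0.104 to 0.229 in the other settings. Marker minus CA1 level differed between groups by -0.02, and by -0.09 to 0.03 when each library was left out. With the replicate block 0 member genes, 0 genes and 0 transcripts in all were called. The replicate numbers are shared by the groups, and the labels state no pairing, so the numbers were not taken as one. Same-numbered libraries deviated together with r from -0.186 to 0.394, and 3 of 5 vehicle libraries correlated best with their own number. These values do not exclude a shared structure. Depth limits Glis3 most, on 34 to 77 counts per library.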
